A study of Homo sapiens with 3 samples.

Results

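The change between 8 h and 24 h of GSK-LSD1 treatment was measured in THP-1 cells by RNA-seq, by setting the 24 h library against the 8 h library. A feature, which is 1 row of the count table, entered when it held at least 50 counts in either treated library, and 3900 of 213543 features did so, against 50694 features with any count. Of the 3900 features, 3710 are protein accessions and 190 are Ensembl transcripts. A count of exactly 50 in the higher treated library admitted 38 of them, and 50 further features missed the minimum with 49 counts. These features held 89.1% of all counts at 8 h and 88.6% at 24 h.

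THP-1 is a human acute monocytic leukemia line that carries the MLL-AF9 fusion, and GSK-LSD1 is a small-molecule inhibitor of the histone demethylase LSD1. The untreated cells (0 h) received no inhibitor, and the treated cells received 0.2 µM GSK-LSD1 for 8 h or 24 h to induce monocytic differentiation. Every time point is 1 library from total RNA depleted of ribosomal RNA, so no difference has a replicate check and no p-value is given. No untreated library was made at 8 h or 24 h, so treatment and time in culture cannot be told apart.

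LSD1, encoded by KDM1A, removes methyl groups from lysine 4 of histone H3. In myeloid leukemia it sits with the corepressor RCOR1 on chromatin bound by the repressor GFI1, and its inhibition is known to release enhancers of myeloid genes and to move blasts towards a monocytic state. Monocytes are known for the calcium-binding calprotectin proteins, lysozyme, the integrin CD11b and the NADPH oxidase that makes superoxide.

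Total counts were 1475938, 1310912 and 1444011 in the 0 h, 8 h and 24 h libraries. Levels are given in CPM, which are counts scaled to a common library size, and TMM factors (edgeR) of 1.04, 0.977 and 0.984 were applied to the sizes. A feature at 0 could hold up to 3 counts, which is 1.95 CPM at 0 h, 2.34 at 8 h and 2.11 at 24 h. Intervals in brackets are exact 95% intervals of a log2 ratio, and both they and these limits cover counting error only, because the reads carry no molecular identifiers and may repeat a molecule. Of 10 identity markers, SPI1, CD4 and LYZ passed the minimum, while CD33, FCER1G, TYROBP and CSF1R were listed at 0 in all 3 libraries under their accessions. The others were low, ITGB2 with 7, 3 and 6 counts, HOXA9 with 8, 2 and 6, and MPO with 17, 18 and 18. The KDM1A accession held 1, 0 and 1 counts, too few for a ratio. Since such genes can be at 0 under their accession, a low row was not read as a silent gene. The 12 markers of T, B, erythroid, platelet, epithelial, fibroblast and liver cells summed to 1, 4 and 3 counts, which for the same reason cannot show that such cells were absent.

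Most features were at close levels at 8 h and 24 h. The median log2 ratio of 24 h over 8 h was -0.03, the 5th and 95th percentiles were -0.43 and 0.46, and 95.8% of the features were less than about 1.5-fold apart. A feature was called when its level differed at least 2-fold and its interval left out 0. By that rule 27 features (0.692%) rose and 4 (0.103%) fell, all 4 of them protein-coding accessions. Of the 27, 23 are accessions and 4 are transcripts. Features under 50 counts at 8 h entered only through the 24 h library, so being high there let them enter. The reverse holds for features under 50 counts at 24 h. A correction for the dependence of the ratio on level (loess) gave 20 higher and 9 lower. Its curve was fitted to the same features, where a mean level under the minimum requires a larger ratio. At low levels the curve can therefore follow the called features, so there it cannot check their calls. KLHL5 went from a log2 ratio of 1.44 to 0.78, and ID1 from -2.61 to -3.30. In bulk RNA, a change in the share of cells that make an RNA and a change in its amount per cell cannot be told apart.

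**Figure D1:**
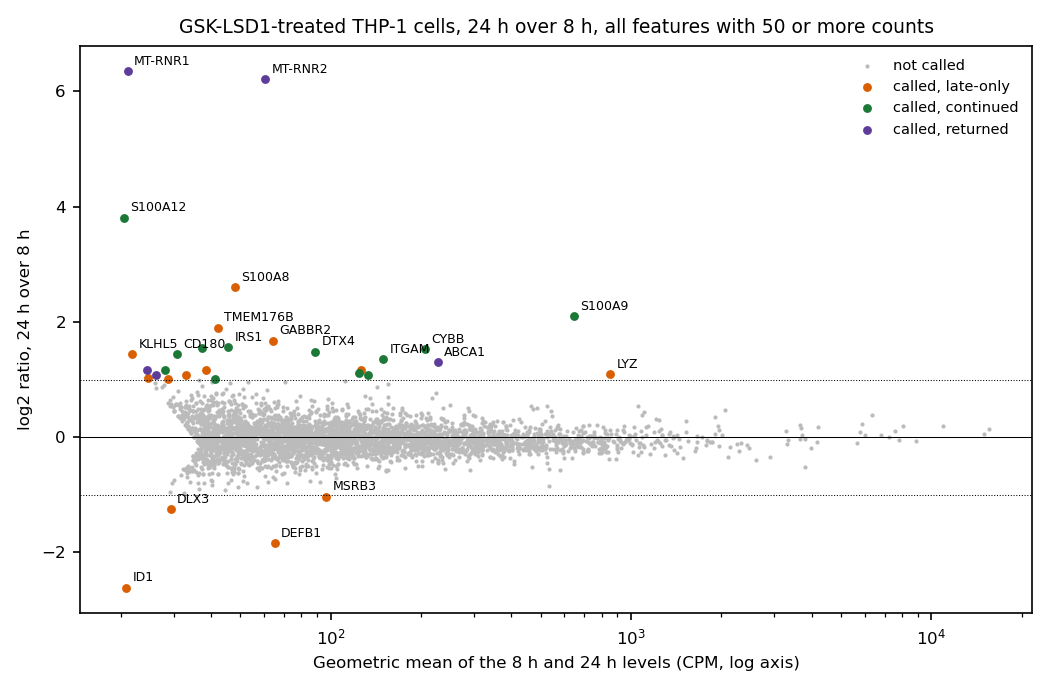
The log2 ratio of 24 h over 8 h (vertical axis) is plotted against the geometric mean of the 8 h and 24 h levels in CPM (horizontal log axis), with 1 point for each of the 3900 features and dotted lines at a 2-fold difference. The 27 features that rose and the 4 that fell are coloured by class, and the cloud of the others is centred near -0.03.

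The features were then sorted by what they had done in the first 8 h. Late-only features had an 8 h over 0 h log2 ratio under 0.5 in size, continued features had already moved the same way, and returned features had moved the opposite way. Of the 27 features that rose, 10 were late-only, 12 continued and 5 returned, and all 4 that fell were late-only. The 8 h library enters both ratios, so an error in its count moves them in opposite directions, and values of all 3 libraries are given for this reason. Under a flat limit of 0.25, late-only features numbered 7 higher and 1 lower, which is DLX3.

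**Figure D2:**
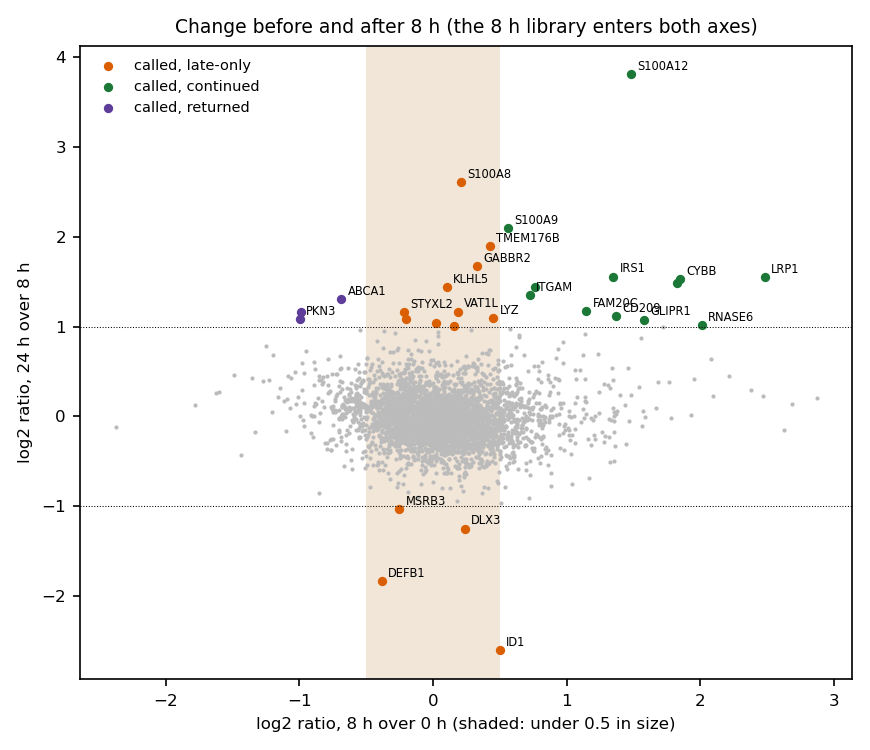
Each point is a feature, placed by its log2 ratio of 8 h over 0 h (horizontal axis) and of 24 h over 8 h (vertical axis), with the late-only range under 0.5 shaded, and both mitochondrial ribosomal RNAs lie outside the plotted range and are left out. S100A8 and the 4 features that fell stand in the shaded band, while LRP1 and CYBB had already been higher at 8 h.

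The largest rises among protein-coding genes were in calprotectin and its relative S100A12, small calcium-binding proteins that monocytes and neutrophils hold in their cytosol and release in inflammation. Their genes lie close together on chromosome 1 of GRCh38, with S100A9 on the forward strand (153357854 to 153361023) and S100A12 (153373711 to 153375621) and S100A8 (153390032 to 153391073) on the reverse strand. S100A9, the larger calprotectin subunit, was at 211 CPM at 0 h, 312 at 8 h and 1334 at 24 h, on 324, 399 and 1894 counts. It rose by a log2 ratio of 2.10 (1.94 to 2.26) after 8 h, against 0.56 (0.35 to 0.78) before.

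S100A8, the other calprotectin subunit, was at 16.9, 19.5 and 119 CPM, on 26, 25 and 169 counts. It was flat over the first 8 h, with a log2 ratio of 0.21 (-0.65 to 1.06), and rose by 2.61 (1.996 to 3.28) afterwards, so it is late-only where its partner S100A9 is counted as continued by a small margin. S100A12, a ligand of the receptor for advanced glycation end products, held 3, 7 and 109 counts, or 1.95, 5.47 and 76.7 CPM. Its rise after 8 h was 3.81 (2.72 to 5.16), and its earlier ratio of 1.49 (-0.65 to 4.07) rests on 3 and 7 counts, so this gene could have been flat until 8 h.

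The 200 bases before the RefSeq start of these genes, and of ABCA1, which moved down and then up, are printed below from GRCh38.p14, on the strand of the gene and without any annotated exon. Capitals mark matches, on either strand, to TATAAA (the TATA box), TTNNGNAA (a C/EBP-like motif), GAGGAAG (a PU.1-like motif) and AATCAC (a GFI1-like core), and none of the matches overlap in these 4 sequences.
S100A12 (chr1:153375622-153375821, reverse strand): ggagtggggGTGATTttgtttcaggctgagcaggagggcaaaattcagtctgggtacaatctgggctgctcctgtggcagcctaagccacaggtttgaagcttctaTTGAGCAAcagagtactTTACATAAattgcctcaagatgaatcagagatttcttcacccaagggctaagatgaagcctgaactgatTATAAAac
S100A8 (chr1:153391189-153391388, reverse strand): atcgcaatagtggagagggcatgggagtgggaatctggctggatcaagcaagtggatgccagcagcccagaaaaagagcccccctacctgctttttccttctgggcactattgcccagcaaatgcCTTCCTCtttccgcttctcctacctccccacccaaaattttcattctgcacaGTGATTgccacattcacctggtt
S100A9 (chr1:153357654-153357853, forward strand): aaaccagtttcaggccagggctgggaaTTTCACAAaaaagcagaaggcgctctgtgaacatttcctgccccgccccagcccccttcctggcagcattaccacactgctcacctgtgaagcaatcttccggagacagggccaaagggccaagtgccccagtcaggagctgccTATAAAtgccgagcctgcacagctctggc
ABCA1 (chr9:104928156-104928355, reverse strand): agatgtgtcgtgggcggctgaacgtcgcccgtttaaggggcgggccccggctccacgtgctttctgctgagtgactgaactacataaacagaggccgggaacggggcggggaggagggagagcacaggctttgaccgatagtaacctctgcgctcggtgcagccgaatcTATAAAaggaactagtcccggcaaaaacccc

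TATAAA begins 29 bases before the start of S100A9, 31 before that of ABCA1 and 8 before that of S100A12, and S100A8 has none in this window. S100A12 holds TTNNGNAA 94 and 77 bases before its start, and S100A9 holds it 173 bases before. GAGGAAG and AATCAC stand 75 and 23 bases before the start of S100A8. The S100A8 window (153391189 to 153391388) does not adjoin the gene end of 153391073 given above. Its distances and its lack of TATAAA therefore refer to the RefSeq start, which lies upstream of that end. Over 27305 promoters of the same length, 8.92% hold TATAAA, 27.1% TTNNGNAA, 8.96% GAGGAAG and 7.48% AATCAC. Of the 21 accession genes that rose and have a promoter in the table, 3, 9, 4 and 4 hold them. These matches are descriptions of letters, not binding sites, and nothing was drawn from a missing match.

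In the list of S100 and annexin genes, 5 of 16 genes passed the minimum. Beside the 3 that rose, S100A10, which tethers annexin A2 at membranes, went from 55 to 99 counts, a log2 ratio of 0.70 (0.21 to 1.20) that is under the 2-fold limit. ANXA7 gave 0.21 (-0.23 to 0.66). The list's median was 2.10, beside -0.03 over all features, and 1.40 with a minimum of 10 counts. S100A12 and S100A8 passed the minimum of 50 only through the 24 h library, where they are high, so the median describes the genes that passed and supports nothing about the list.

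**Figure D3:**
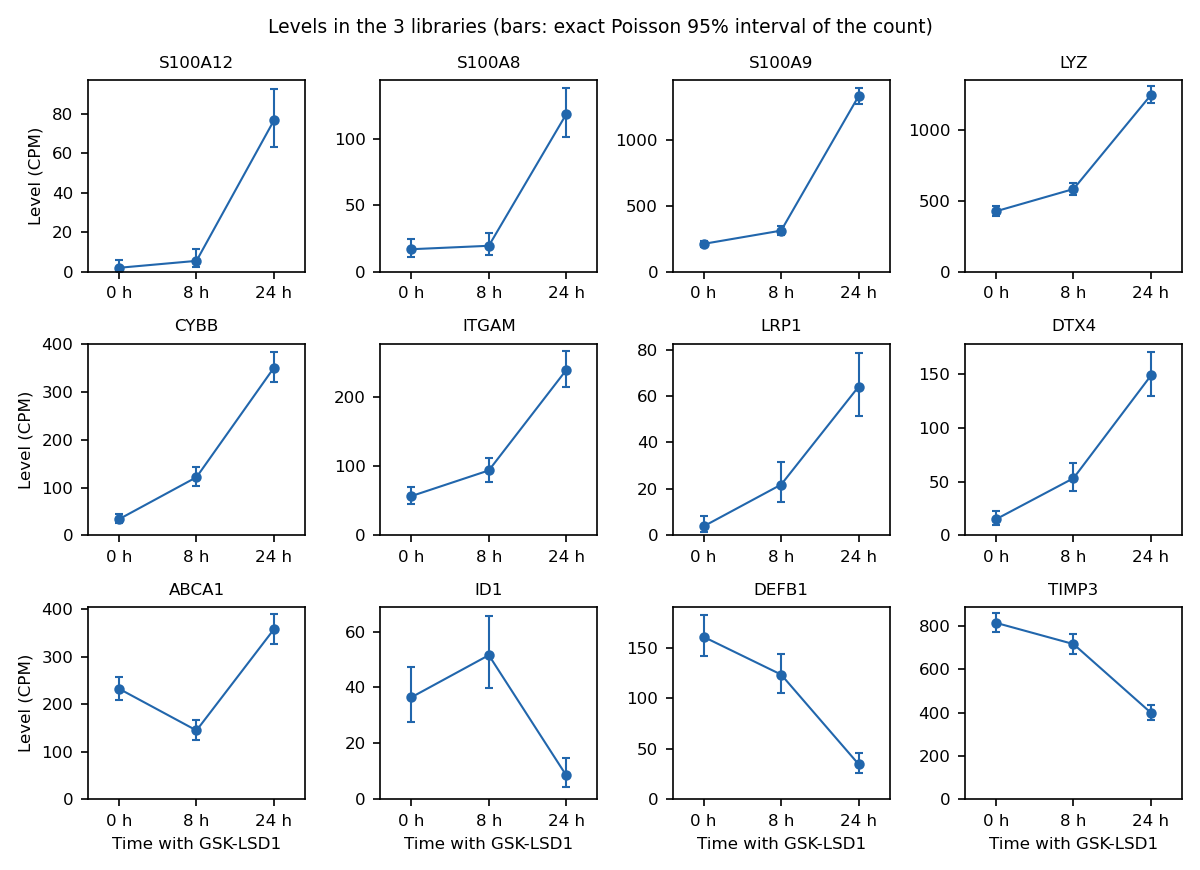
Levels in CPM (vertical axes from 0) of 12 genes are shown at 0 h, 8 h and 24 h (horizontal axis, 1 library each), with bars for the exact Poisson 95% interval of the count. S100A8 stays near 20 CPM until 8 h and stands at 119 at 24 h, while ABCA1 dips to 144 at 8 h and ID1 ends at 8.45.

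Lysozyme and proteins of the monocyte membrane were further genes that rose. LYZ, the secreted bacteriolytic enzyme, was at 426, 583.4 and 1248 CPM, on 655, 747 and 1773 counts. Its rise after 8 h was 1.10 (0.97 to 1.22), and its ratio before 8 h was 0.45 (0.30 to 0.61), which is under the late-only limit although its interval leaves out 0. CYBB, the catalytic subunit of the phagocyte NADPH oxidase, was at 33.8, 122 and 351 CPM. It rose at each step, by 1.85 (1.39 to 2.33) and then by 1.53 (1.27 to 1.80).

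None of the other measured oxidase subunits was called. CYBA, the membrane partner of CYBB, gave -0.06 (-0.37 to 0.24). RAC2, the GTPase of the complex, went from 597 to 779 counts, a log2 ratio of 0.23 (0.08 to 0.39). The list median was 0.09 over 4 genes.

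ITGAM, the alpha chain of the integrin CD11b/CD18 and a marker of monocytic maturation, was at 56.6, 93.7 and 239 CPM. It rose by 1.35 (1.04 to 1.66) after 8 h, following 0.73 (0.32 to 1.14) before. LRP1, an endocytic receptor of macrophages, held 6, 28 and 91 counts and rose by 1.55 (0.93 to 2.22). Of the 12 measured genes on the list of monocyte and macrophage surface proteins, both of these rose 2-fold, none fell, and 6 had an interval above 0, while 7.67% of all features had one above and 11.1% one below. Over all features these are 299 above and 433 below, and scaling moves the split to 366 and 314 with DESeq2 size factors, 345 and 319 after loess and 217 and 625 with TMM factors over all features. Those 6 include the chemokine receptors CCR2 (0.20) and CX3CR1 (0.38), the integrin chain ITGAL (0.38) and the endotoxin receptor TLR4 (0.49). SIRPA, which carries the don't-eat-me signal from CD47, went the other way in its point value, at -0.16 (-0.34 to 0.01). With TMM factors taken over all features, 4 genes of this list had an interval above 0 and 1 below. LRP1 passed the minimum only through the 24 h library, where it is high, so these counts describe the genes that passed. An interval also narrows as the reads of a feature grow, so the shares of intervals off 0 depend on depth.

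Further receptors and immune proteins rose outside that list. CD180, a Toll-like receptor relative that binds the secreted protein MD-1, held 17, 24 and 72 counts and rose by 1.44 (0.75 to 2.17). Its partner MD-1, encoded by LY86, went from 136 to 243 counts, a log2 ratio of 0.69 (0.38 to 1.001) that is below the 2-fold limit. CD209, the lectin DC-SIGN of macrophages and dendritic cells, was at 32.5, 84.3 and 182 CPM and rose by 1.11 (0.78 to 1.45). RNASE6, an antimicrobial ribonuclease of monocytes, held 11, 37 and 83 counts and rose by 1.02 (0.44 to 1.62). GLIPR1, a CAP-family protein first described in glioma, was at 30.6, 91.4 and 193 CPM and rose by 1.08 (0.76 to 1.40).

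All of CD180, CD209, RNASE6 and GLIPR1 had been higher at 8 h than at 0 h in their point values, with log2 ratios of 0.76, 1.37, 2.01 and 1.58. For CD180 the interval of that earlier ratio, -0.20 to 1.75, includes 0. CD86, a costimulatory protein and a differentiation marker of the study, stayed under the minimum with 1, 19 and 37 counts. Its log2 ratio was 4.51 (1.86 to 9.89) for 8 h over 0 h, where the 0 h value is a single count, and 0.81 (-0.02 to 1.69) for 24 h over 8 h.

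The remainder of the continued group was DTX4, IRS1 and a non-coding transcript. DTX4, an E3 ubiquitin ligase linked to Notch and interferon signalling, was at 14.97, 53.1 and 149 CPM and rose by 1.48 (1.08 to 1.90). IRS1, the docking protein of the insulin receptor, held 16, 34 and 111 counts and rose by 1.56 (0.99 to 2.16). The transcript, which has no defined coding sequence and belongs to FAM20C, a gene for a kinase of secreted proteins, held 13, 24 and 60 counts and rose by 1.17 (0.47 to 1.92). After loess its ratio was 0.79 and it was not called.

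The late-only genes that rose include, beside S100A8 and LYZ, 8 whose intervals for 8 h over 0 h all include 0. TMEM176B, a membrane protein of myeloid and dendritic cells, was at 16.3, 21.9 and 81.7 CPM and rose by 1.90 (1.30 to 2.55). GABBR2, a subunit of the metabotropic GABA receptor, was at 28.6, 35.9 and 115 CPM and rose by 1.68 (1.20 to 2.18). VAT1L, which is named for its likeness to a synaptic vesicle protein, held 114, 108 and 269 counts and rose by 1.17 (0.84 to 1.503). Together with S100A8 and LYZ, these have the lower interval ends farthest from 0 among the 10. All of the 10 except LYZ and VAT1L passed the minimum only through the 24 h library, where they are high.

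The other 5 rest on fewer counts. KLHL5, a kelch-repeat protein, went from 17 to 51 counts (1.44, 0.62 to 2.32), and STYXL2, a pseudophosphatase, from 33 to 82 (1.16, 0.56 to 1.79). PTGS1, the constitutive cyclooxygenase, went from 29 to 68 counts (1.08, 0.43 to 1.76). UBTD1, a ubiquitin-like domain protein, went from 26 to 58 (1.01, 0.32 to 1.73), and MAML3, a coactivator of Notch, from 22 to 50 (1.03, 0.28 to 1.83). UBTD1 and MAML3, like RNASE6, were called in 3 of 6 other ways of scaling the ratio, and KLHL5 and PTGS1 in 5 of 6. After loess the ratios of KLHL5, MAML3 and UBTD1 were 0.78, 0.51 and 0.65. STYXL2 and PTGS1 had point values below 0 before 8 h, at -0.22 and -0.20, with intervals that include 0.

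**Figure D4:**
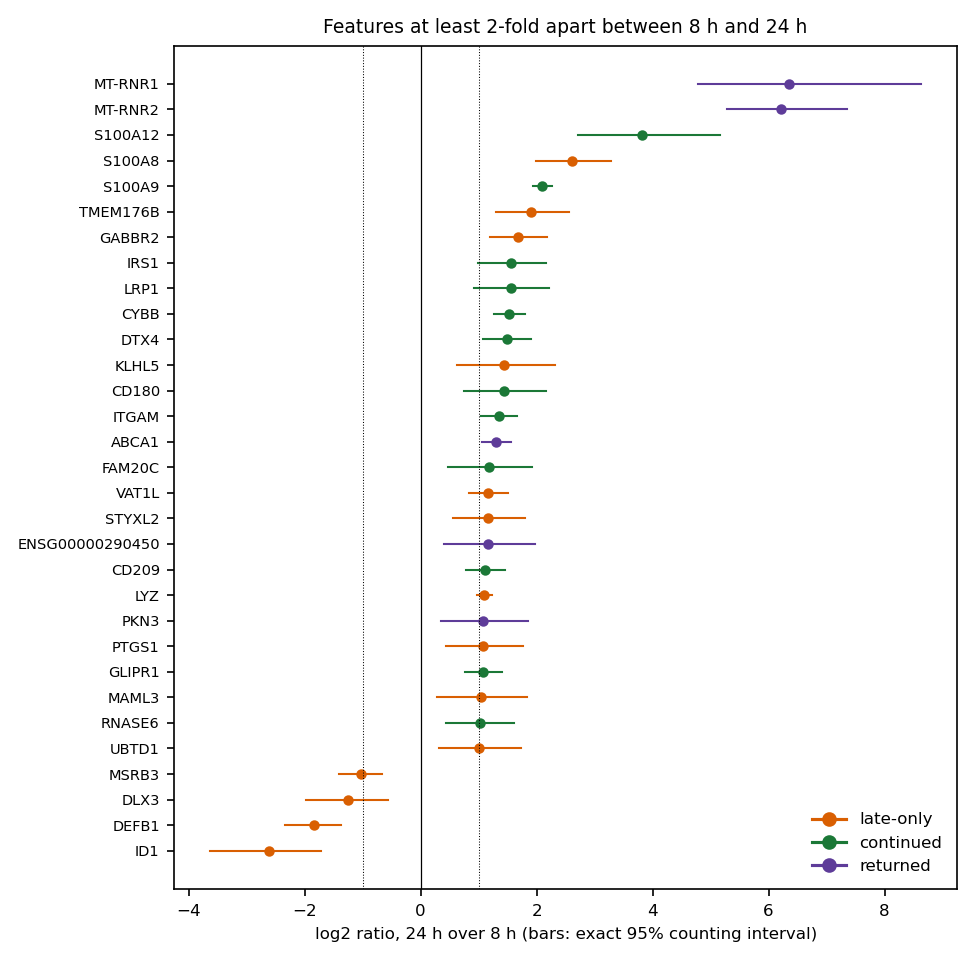
The log2 ratio of 24 h over 8 h (horizontal axis) is given for all 31 called features with bars for the exact 95% counting interval and dotted lines at 2-fold, coloured by class. S100A9 and LYZ have the narrowest bars, and the mitochondrial ribosomal RNAs at the top rest on 3 and 9 counts at 8 h.

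All 4 genes that fell were late-only by the limit of 0.5. All of them except MSRB3 passed the minimum only through the 8 h library, where they are higher. ID1, which keeps basic helix-loop-helix factors off DNA and is a direct target of BMP signalling, lies on chromosome 20 (31605283 to 31606515, forward strand). It was at 36.5, 51.5 and 8.45 CPM, on 56, 66 and 12 counts. It fell by 2.61 on the log2 scale (-3.63 to -1.71) after 8 h. Its ratio before 8 h was 0.50 (-0.04 to 1.04), just under the limit, so ID1 is late-only by a narrow margin and had not fallen by 8 h.

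DEFB1, a secreted antimicrobial defensin, was at 161, 123 and 34.5 CPM, on 247, 158 and 49 counts. It fell by 1.84 (-2.33 to -1.37), the opposite of LYZ among the secreted defence proteins. Its earlier ratio of -0.38 (-0.68 to -0.09) leaves out 0. DLX3, a homeobox transcription factor, went from 58 to 27 counts (-1.25, -1.97 to -0.57) after 59 at 0 h. MSRB3, a methionine sulfoxide reductase, held 253, 177 and 96 counts. Its ratio before 8 h was -0.25 (-0.54 to 0.03), and it then fell by 1.03 (-1.41 to -0.67). With DESeq2 size factors its ratio was -0.995, just short of a call, which left 3 genes lower.

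The returned group rose after 8 h from a lower level than at 0 h. ABCA1, the cholesterol exporter that loads apolipoprotein A-I, was at 232, 144 and 358 CPM, on 357, 185 and 508 counts. It was lower at 8 h by a log2 ratio of -0.69 (-0.95 to -0.43) and then rose by 1.31 (1.06 to 1.56), so that it stood above its starting level at 24 h (24 h over 0 h 0.62, 0.42 to 0.82). PKN3, a protein kinase C-related kinase, held 55, 23 and 54 counts, and the lncRNA ENSG00000290450 held 50, 21 and 52. Both ended near their 0 h level, with 24 h over 0 h ratios of 0.09 and 0.17. Their ratios after 8 h, 1.08 (0.35 to 1.85) and 1.16 (0.40 to 1.96), became 0.62 and 0.63 after loess, where neither was called.

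The remaining returned features are the ribosomal RNAs of the mitochondrion, MT-RNR2 with 1661, 9 and 743 counts and MT-RNR1 with 712, 3 and 271. Their log2 ratios after 8 h were 6.22 (5.29 to 7.35) and 6.35 (4.79 to 8.63). MT-ND4, the only listed mitochondrial mRNA with a row in the table, which encodes a subunit of respiratory complex I, had 20293, 18898 and 23203 counts and a ratio of 0.15 (0.12 to 0.17). All libraries had their ribosomal RNA depleted, and the completeness of that step in each library was not tested. Leaving out these RNAs as features gave 25 higher and 4 lower.

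With a lower limit of 1.5-fold, 93 features (2.38%) were higher and 58 (1.49%) lower, of which 51 and 47 were late-only. SORT1, a sorting receptor of the Golgi and lysosome, held 79, 145 and 304 counts (0.92, 0.63 to 1.21). ITPR2, a calcium channel of the endoplasmic reticulum, held 82, 102 and 222 (0.97, 0.63 to 1.33). MPEG1, the pore-forming perforin-2 of macrophages, held 55, 135 and 275 (0.88, 0.57 to 1.19). These genes are not late-only, with 8 h over 0 h log2 ratios of 1.14, 0.58 and 1.56. PLXND1 is late-only, with 64, 65 and 140 counts, 0.29 (-0.24 to 0.81) before 8 h and 0.96 (0.52 to 1.40) after. On the lower side TIMP3, an inhibitor of matrix metalloproteinases, held 1251, 917 and 566 counts (-0.85). TIMP3 is late-only by the rule, although its earlier ratio of -0.19 (-0.31 to -0.06) leaves out 0. SMAD7, the inhibitory SMAD, held 57, 78 and 46 counts, with 0.72 (0.20 to 1.23) before 8 h and -0.91 (-1.47 to -0.37) after. It is not late-only, and its 24 h over 0 h ratio of -0.20 (-0.79 to 0.39) has an interval that includes 0. The sides of this tier depend on scaling, with 115 higher and 48 lower under DESeq2 size factors, 76 and 86 under TMM factors over all features, and 81 and 76 after loess. Just outside the 2-fold limit stood ANXA2P2 at a log2 ratio of 0.996, an annexin A2 pseudogene whose reads may come from its parent gene, and DNAJB11, a chaperone of the endoplasmic reticulum, at -0.96.

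No transcription factor on the myeloid list was called, at either limit. GFI1, the repressor that recruits LSD1, had 1558, 1911 and 1827 counts and a ratio of -0.21 (-0.31 to -0.12) after 8 h, against 0.56 before, while RCOR1 gave -0.03 (-0.17 to 0.12). The median of these 2 measured genes of the LSD1 complex list was -0.12. CEBPA, the master factor of the granulocyte and monocyte lineage, gave -0.15 (-0.25 to -0.05), and RUNX1 -0.24 (-0.37 to -0.11). CEBPD, an inducible factor of the same family, gave 0.47 (0.13 to 0.82). SPI1, which encodes PU.1, gave 0.08 (-0.35 to 0.51). Of 9 factors measured, 1 had an interval above 0 and 3 below, and the list median was 0.06 where the ratio of the summed counts was -0.14.

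**Figure D5:**
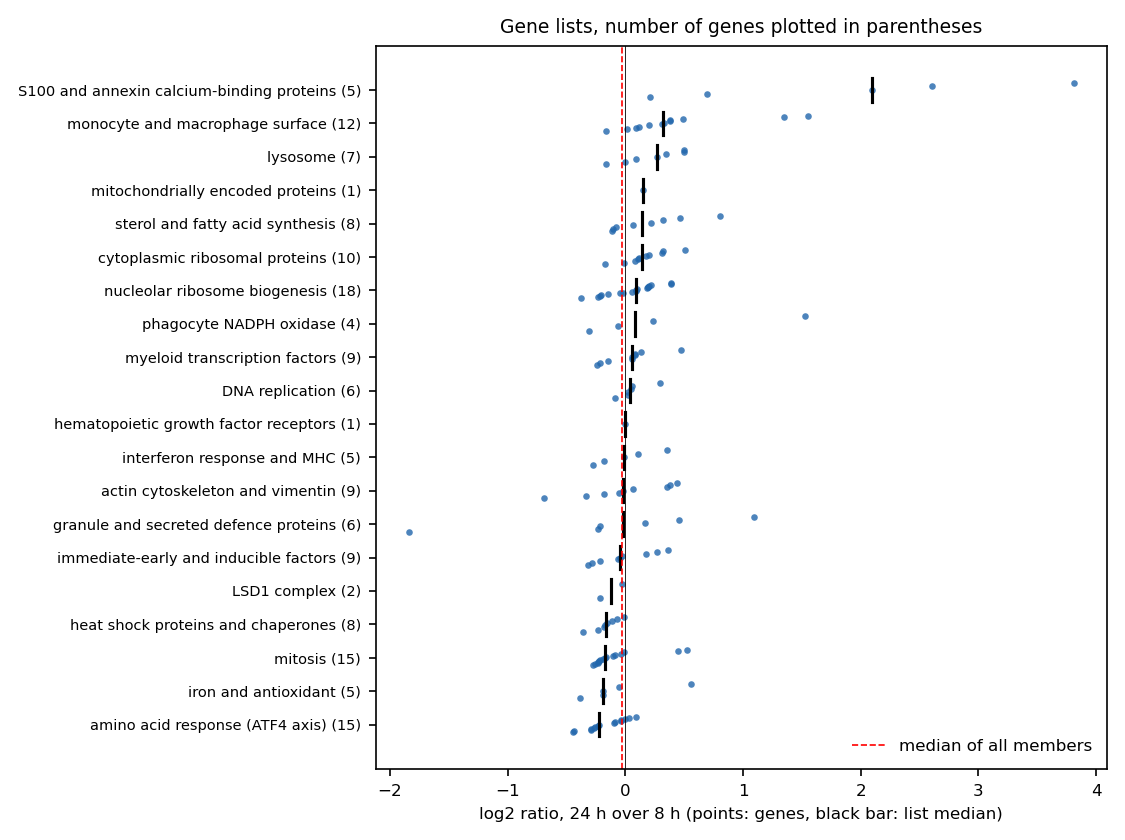
Each point is a gene, placed by its log2 ratio of 24 h over 8 h (horizontal axis) in the row of its list, with a black bar for the list median and a dashed line for the median of all features at -0.03. S100A12, S100A8 and S100A9 are the 3 points farthest to the right, the first 2 of which passed the minimum only through the 24 h library, and the medians of the lists other than S100 and annexins lie between -0.22 and 0.32.

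Genes of mitosis had ratios slightly below 0. Of 29 listed genes of mitosis, 15 were measured and none was called. Their median was -0.17, beside a 25th percentile of -0.18 over all features. Among them, 10 had an interval below 0 and 1, NCAPD2, above it, where 11.1% of all features had one below. An interval narrows as counts grow, and its median width over all features was 0.71, so these shares also depend on counts. MKI67, the proliferation marker Ki-67, had 5497 and 5743 counts (-0.09, -0.14 to -0.03), and CENPF, a kinetochore protein, 3379 and 3294 (-0.19, -0.26 to -0.12). Before 8 h the values of both genes were above 0, at 0.50 and 0.28. The 6 measured genes of DNA replication all had intervals that include 0, with MCM6 of the replicative helicase at 0.05 and the sliding clamp PCNA at 0.03, and a median of 0.04. With DESeq2 size factors, 7 genes of mitosis had an interval below 0.

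Of 22 listed chaperones, 8 were measured. As for mitosis, the share of intervals off 0 also depends on counts. Among these chaperones, 6 intervals lay below 0 and none above, where 11.1% of all features lay below, and 4 lay below with DESeq2 size factors. Their median was -0.16, with HSP90AB1 at -0.07 and PDIA6 at -0.17. The 15 measured genes of the amino acid response had a median of -0.22 and 2 intervals below 0, ATF4 itself at -0.23 (-0.36 to -0.10) and XPOT. SLC7A1, an arginine transporter, gave -0.10. Cytoplasmic ribosomal proteins had a median of 0.14 over the 10 measured of 76 listed genes. Of these, 3 had intervals above 0, where 7.67% of all features had one above, with RPL15 at 0.12 and RPL22 at 0.20. This became 1 interval with TMM factors over all features and 4 after loess. Of 37 listed nucleolar genes of ribosome assembly, 18 were measured, with 1 interval off 0 (below) and a median of 0.09. The helicase DDX21 gave 0.05 and WDR3 -0.02.

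Lipid and lysosomal genes had medians above 0. Of 25 listed genes of sterol and fatty acid synthesis, 8 were measured, 3 had an interval above 0, and the median was 0.14. The desaturase SCD went from 2246 to 3446 counts (0.47, 0.39 to 0.55), while ACLY gave -0.08. LSS, with 30 and 58 counts (0.80, 0.14 to 1.49), is among the 3. It passed the minimum only through the 24 h library, where it is higher, so these values describe the genes that passed. Of 29 listed lysosomal genes, 7 were measured, 3 had an interval above 0 and 1 below, and the median was 0.27. The protease CTSZ gave 0.50 (0.34 to 0.66) while the membrane protein LAMP2 gave -0.17 (-0.29 to -0.05). With TMM factors over all features, 2 intervals lay above 0 in each of these lists, and 1 lay below in each. Of 6 measured granule and secreted defence proteins, out of 14 listed, 2 had an interval above 0 and 3 below, with a median of -0.02. The neutrophil elastase gene ELANE was among those below, at -0.23 (-0.31 to -0.16).

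The last lists had members on both sides. Of the listed genes, 9 of 25 were measured for actin and 5 of 17 for iron and antioxidant genes. For immediate-early and inducible factors 9 of 23 were measured, and for interferon and MHC 5 of 32. In the actin cytoskeleton, 3 of 9 intervals were above 0 and 3 below, with AHNAK at 0.38, LCP1 at -0.19 and a median of -0.02, which was 0.04 after loess and 0.02 with DESeq2 size factors. Of 5 iron and antioxidant genes, 1 interval was above and 1 below, the median was -0.19, the ferritin light chain FTL gave -0.05 and GCLM -0.19. Of 9 immediate-early and inducible factors, 1 interval was above 0, that of FOSL2 at 0.17, with KLF10 at -0.05 and a median of -0.05. Of 5 interferon and MHC genes, 1 was above and 1 below, with EIF2AK2 at 0.11, IFI6 at -0.27 and a median of -0.01. The interleukin-6 receptor gene IL6R was the only measured growth factor receptor, at -0.002, and no glycolytic gene passed the minimum. For the actin, granule, immediate-early and interferon lists the ratio of the summed counts was above 0 (0.13, 0.05, 0.08 and 0.03) where the median was below.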

How the data were processed

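RNA was taken from THP-1 cells at 0 h, 8 h and 24 h of GSK-LSD1 and sequenced as 1 library each. Per the labels, ribosomal RNA was removed and the submitters' processing notes name fastp, STAR and hg38. The deposited values are raw counts of reads per feature, made by the authors without normalization. Which program counted the reads, with which annotation and strand, and how reads shared by features were treated, are not given in the sources used here. Groups came from the labels, and each column was assigned by name.

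Accession rows were named by gene by hand from general knowledge of the accessions where certain, since the table does not pair them, and genes were placed and transcripts named with GENCODE v44. TMM factors came from edgeR 4.0.16 in R 4.3.3 over 9609 features with at least 10 counts in any library, and size factors from DESeq2 1.42.0. Ratios of CPM used no prior count and Clopper-Pearson intervals conditional on the sum of both counts (scipy 1.17.1, Python 3.11.15). The steps were tested on simulated counts with Poisson error only, which the intervals also assume, so that test says nothing about variation between libraries. Alternatives were other scalings, filters, a prior count, loess and other limits. The contrast, its members and the lists were chosen with earlier results of these data known.

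Named genes are, in each direction, the 15 called features with the interval end nearest 0 farthest from it and the 10 late-only ones, the returned features, called list members or the 2 with the most counts, KDM1A and CD86. The remaining genes named, such as those between 1.5-fold and 2-fold and RUNX1, CEBPD, CCR2, CX3CR1, ITGAL, TLR4, SIRPA, NCAPD2, ELANE and XPOT, were chosen after their values were seen, as were the remaining called features. The gene names of the accession rows were also written after their values were seen. The value of 1 listed gene is not reported here.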

Additional observations from a re-analysis of the deposited data

How the results depend on the processing

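No paired analysis was possible because each time point is 1 library without a replicate number. The limits rest on depth, since the low 8 h counts of many features widen their intervals, and on single libraries, which no setting replaces. No called feature changed direction in any of 6 other scalings, priors or corrections, and 22 of 31 stayed called in all of them. The scalings shift all features by the same small amount and the prior cannot reverse a sign. Only loess could have changed a direction, so the lack of reversals says little. Counts are given as higher, lower, late-only higher and late-only lower. They were 27, 4, 10 and 4, and became 168, 81, 43 and 32 with a minimum of 10 counts, 16, 2, 5 and 2 with 100, and 197, 128, 48 and 37 without a minimum. They became 93, 58, 51 and 47 with a limit of 1.5-fold, and 11, 2, 3 and 2 where the whole interval had to lie past 1. After loess 9 were lower, with 6 and 8 late-only, and with an early limit of 0.25 late-only lower became 1. The other 30 counts stayed within 1.5 times. TMM factors over all features were an alternative chosen after seeing the data, as were the removal of the mitochondrial ribosomal RNAs and DESeq2 size factors for list medians. The median of all features moved between -0.08 and 0.00 across these scalings.

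List medians moved as follows. With a minimum of 10 counts they were -0.21 for the LSD1 complex, 1.40 for S100 and annexins, -0.0896 for the amino acid response, 0.25 for ribosomal proteins, -0.15 for granule proteins, 0.15 for interferon and MHC, 0.18 for the lysosome, -0.21 for mitosis and 0.27 for sterol synthesis, with more genes in each list. After loess they were 0.0363 for actin, -0.12 for chaperones, -0.15 for iron, 0.10 for MT-ND4 and -0.13 for mitosis. With DESeq2 size factors they were 0.0206 for actin, -0.13 for chaperones, 0.18 for MT-ND4 and -0.13 for mitosis. With TMM factors over all features they were -0.0636 for actin, -0.21 for chaperones, -0.24 for iron, 0.10 for MT-ND4 and -0.22 for mitosis. The other 82 medians moved by less than the counting error of the ratio of the list's summed counts. That error is not the error of the median.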

Other observations

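Among the 190 transcript features, most of them non-coding, the median log2 ratio of 24 h over 8 h was 0.00. The 86 lncRNA features had a median of 0.04, with 8 intervals above 0 and 7 below. NEAT1, the scaffold RNA of paraspeckles, was at 667, 482 and 348 CPM, with -0.47 (-0.62 to -0.32) by 8 h and -0.47 (-0.64 to -0.30) after it. NORAD, a lncRNA that binds Pumilio proteins, held 1599, 1173 and 1083 counts and gave -0.26 (-0.39 to -0.14) after 8 h. ENST00000666873.1, a lncRNA transcript of ENSG00000227706, held 710, 372 and 281 counts (-0.55, -0.78 to -0.33), and a second transcript of that gene held 83, 64 and 38 (-0.90, -1.52 to -0.30). These transcripts share a locus and are not independent measurements.

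Of the small and structured RNAs, SNORA73B, RN7SL1 and RN7SL3 were higher at 8 h than at 0 h and slightly lower at 24 h than at 8 h. SNORA73B, a small nucleolar RNA that takes part in ribosomal RNA processing, held 139, 296 and 233 counts, with 1.35 (1.06 to 1.65) before 8 h and -0.49 (-0.75 to -0.24) after. RN7SL1, the RNA of the signal recognition particle, held 3340, 4409 and 4480 counts, with 0.66 before and -0.13 (-0.19 to -0.07) after. RN7SL3, a near-identical copy that can share its reads, gave 1.32 and -0.23. SCARNA7, a small Cajal body RNA, gave 0.39 (0.13 to 0.64) after 8 h. These transcripts were chosen after their values were seen.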
